A study of Gallus gallus with 24 samples.

Results

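The B cell follicle genes described here were TNFRSF13C, CXCR5, BANK1, PAX5, CD79B and BTK, 6 of the 25339 genes in the deposited expression table of broiler ileum. They were taken by their symbols, each symbol had 1 entry, and all 6 passed the filter of a mean of at least 0.1 FPKM (fragments counted on a gene, scaled to its length and to sequencing depth) over the 24 birds. The genes had been chosen from these measurements, because values of CXCR5 and TNFRSF13C in the supplemented birds differed from those in challenged birds on the basal diet. The comparisons of SPH and of SPM with SP are therefore given as a description without a test. The SP, SPH and SPM birds that entered the choice also enter the comparisons with CTL and that of SPM with SPH. These comparisons are therefore not independent of it.

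The samples came from 24 broilers (Gallus gallus) aged 14 d, with 6 birds in each of 4 groups. CTL birds received sterile PBS by mouth at 5 d and a basal diet. SP birds received 0.5 mL of a Salmonella pullorum suspension at the same age, SPH birds received the same challenge and a diet with 300 mg/kg of honokiol, and SPM birds the challenge and 300 mg/kg of magnolol. Honokiol and magnolol are isomeric biphenols of magnolia bark. CTL birds were kept apart from the challenged birds, so that place and challenge cannot be told apart. The labels call the samples ileum flora and also name retinas in the extraction text, while the authors' methods give ileum as the source of the RNA. The epithelium list, at 11910 to 23920 summed FPKM in every bird, was far above all the other lists examined.

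B cells carry an antigen receptor that signals through a pair of membrane chains, one of which is CD79B. In birds these cells are produced in the bursa of Fabricius and settle in lymphoid tissue of the gut wall, where they gather in follicles and form germinal centres. CXCR5 on the B cell answers to CXCL13 made in the follicle, and the BAFF receptor TNFRSF13C passes on a survival signal from the cytokine BAFF, encoded by TNFSF13B. PAX5 is the transcription factor that holds cells in the B lineage. In whole ileum, fewer B cells and less RNA per B cell cannot be told apart.

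Between 14393822 and 19435410 reads per bird lay on genes. The summed FPKM of W chromosome genes, which only hens carry, was 511.9 to 632.9 in 16 birds and at most 3.265 in the other 8. All 6 CTL birds had W transcripts, against 3 of 6 SP, 3 of 6 SPH and 4 of 6 SPM birds.

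The 6 genes were highest in the SP group by mean and by median, and most reads of TNFRSF13C, CXCR5, PAX5 and CD79B lay in the same 4 birds. For 5 of them, TNFRSF13C, CXCR5, PAX5, CD79B and BTK, the 4 highest of the 24 birds were SP bird 5, CTL bird 2, SP bird 1 and SP bird 6. These 4 birds held 82.4% of all TNFRSF13C reads, 72.9% of CXCR5 reads, 72.4% of PAX5 reads, 64.9% of CD79B reads and 32.4% of BTK reads. BANK1 had 27.7% of its reads in its own 4 highest birds, among which SP bird 4 took the place of SP bird 1.

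**Figure D1:**
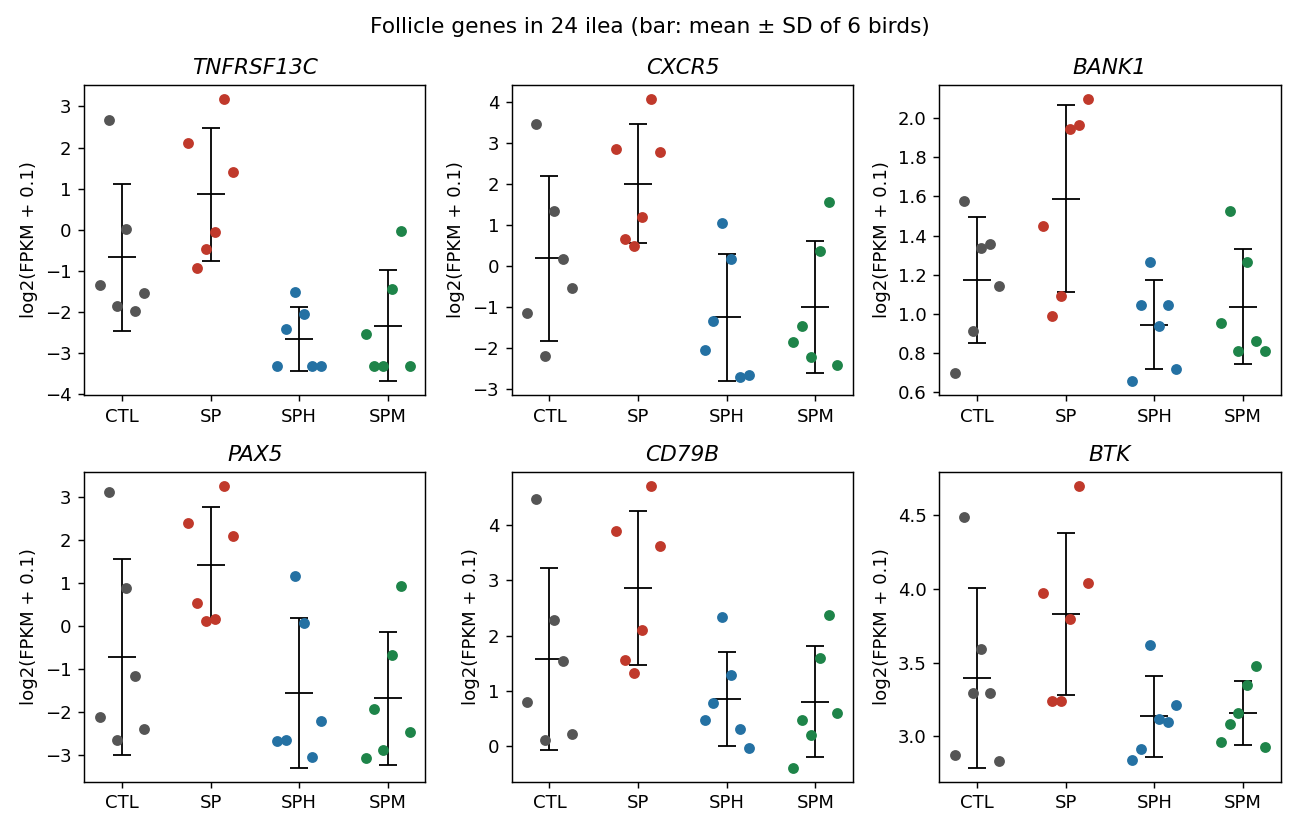
Level of each of the 6 genes on the scale log2(FPKM + 0.1), with 1 point per bird, 6 birds per group, and the mean with its SD as a bar. CTL bird 2 lies with the highest SP birds in TNFRSF13C, CXCR5, PAX5, CD79B and BTK, and the vertical scales differ between genes.

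CD79B (ENSGALG00000000251, minus strand of chromosome 27, 4040247 to 4045220) encodes the Ig-beta signalling chain of the B cell receptor. Coordinates here are those of the authors' table, whose build is not given in the sources used here. Its level in the CTL birds ran from 0.978 to 22.2 FPKM with a median of 2.22. In SP it ran from 2.39 to 26.0 FPKM with a median of 8.18, in SPH from 0.879 to 4.93 with a median of 1.45, and in SPM from 0.665 to 5.05 with a median of 1.35. The groups overlapped throughout, since the lowest SP birds lay within the range of every other group. The difference of SP from CTL was 1.30 on the log2(FPKM + 0.1) scale (SE 0.68, adjusted p = 0.77 from limma, two-sided exact permutation p = 0.167). All 6 SP birds lay above the CTL median.

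BTK (ENSGALG00000004958, plus strand of chromosome 4, 2028580 to 2039548) encodes the Tec family kinase that acts downstream of the receptor and is also used by myeloid cells. It was the most abundant of the 6 per gene length, with 7.01 to 22.4 FPKM in CTL (median 9.71), 9.32 to 25.9 in SP (median 14.7), 7.06 to 12.2 in SPH (median 8.52) and 7.50 to 11.0 in SPM (median 8.59). No bird was below 309 reads. Where CD79B was near its lowest level, at 0.665 FPKM in SPM bird 1, BTK was still at 7.67 FPKM. A straight line of BTK on CD79B over the 24 birds met the axis at 7.61 FPKM for a CD79B level of 0, with a slope of 0.684 FPKM per FPKM.

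BANK1 (ENSGALG00000012292, plus strand of chromosome 4, 60568176 to 60699388) encodes a scaffold protein with ankyrin repeats that takes part in B cell receptor signalling. It varied least, between 1.48 and 4.18 FPKM over all birds. Its range was 1.53 to 2.89 FPKM in CTL (median 2.27), 1.89 to 4.18 in SP (median 3.19), 1.48 to 2.30 in SPH (median 1.89) and 1.65 to 2.78 in SPM (median 1.78). Its line on CD79B met the axis at 1.90 FPKM, which like the value for BTK lies outside the measured CD79B levels of 0.665 FPKM or more. The r with CD79B on FPKM over the 24 birds was 0.671 for BANK1 and 0.970 for BTK. The difference of SP from CTL was 0.42 on the log2 scale (SE 0.20, adjusted p = 0.77, two-sided exact permutation p = 0.106).

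TNFRSF13C (ENSGALG00000019322, plus strand of chromosome 1, 49476737 to 49478344) encodes the BAFF receptor. It was detected with 0.154 to 6.25 FPKM in CTL (median 0.269), 0.421 to 8.96 in SP (median 1.70), 0 to 0.252 in SPH (median 0.0434) and 0 to 0.875 in SPM (median 0.0365). Each of the 6 SPH birds was lower than each of the 6 SP birds, which is part of what chose this gene. The share of all genes with such a separation was not counted. These levels rest on few reads. The 6 SPH birds held 6 reads together (exact Poisson 95% interval 2.20 to 13.1, counting error only), against 14 in SPM, 94 in CTL and 249 in SP, and 14 of the 24 birds had 3 reads or fewer.

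CXCR5 (ENSGALG00000007675, plus strand of chromosome 24, 5596881 to 5602957) encodes the chemokine receptor that leads B cells and follicular helper T cells into follicles. It ran from 0.12 to 11.1 FPKM in CTL (median 0.811), from 1.31 to 16.8 in SP (median 4.52), from 0.0546 to 1.99 in SPH (median 0.221) and from 0.0879 to 2.88 in SPM (median 0.220). SPH bird 3, at 1.99 FPKM, and SPM bird 5, at 2.88, stood within the SP range, and the other 5 SPH birds and 5 SPM birds lay below every SP bird. These values bear on the choice of the gene, and the share of all genes separated so far was not counted. Over the 24 birds the level spanned 308 times from lowest to highest, where the lowest level rested on 2 reads.

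PAX5 (ENSGALG00000016431, plus strand of chromosome Z, 82009343 to 82120633) had the widest span of the genes detected in every bird, 479 times. The lowest PAX5 level also rested on 2 reads, so the size of this span is imprecise. Its level was 0.0593 to 8.56 FPKM in CTL (median 0.237), 0.981 to 9.50 in SP (median 2.77), 0.0216 to 2.14 in SPH (median 0.0882) and 0.0198 to 1.81 in SPM (median 0.122). The CTL group held both a bird at 8.56 FPKM and 3 birds below 0.13. The gene lies on the Z chromosome, of which cocks carry 2 copies. In SP, the 3 birds without W transcripts had 0.981 to 5.15 FPKM (median 1.34) and the 3 with them 1.03 to 9.50 (median 4.20), so that both ranges overlapped.

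The question of the comparison of SP with CTL was how the challenge changed the ileum. No gene of 17288 tested was called, at an adjusted p under 0.05 with a log2 difference beyond 0.5 (percent called 0), and none of the 6 follicle genes was. Without adjustment, limma placed 446 genes (2.58%) past these limits, of which PAX5 was the only follicle gene. The differences were 2.15 for PAX5, 1.82 for CXCR5, 1.54 for TNFRSF13C, 1.30 for CD79B, 0.44 for BTK and 0.42 for BANK1 on the log2(FPKM + 0.1) scale, beside a median of -0.0046 over all genes tested. All 6 SP birds lay above the CTL median in TNFRSF13C, CXCR5, PAX5 and CD79B, and 4 of 6 did so in BANK1 and BTK. The share of all genes with such a separation was not counted. The adjusted p from limma was 0.77 for each of the 6 genes. Two-sided exact permutation tests gave p = 0.0844 for PAX5, p = 0.106 for CXCR5, p = 0.141 for TNFRSF13C and p = 0.232 for BTK, where the smallest p possible with 6 birds against 6 is 0.00216. CTL bird 2 moved these values most for each gene but BANK1. Without it the differences were 2.92 for PAX5, 2.48 for CXCR5, 2.21 for TNFRSF13C and 1.88 for CD79B, and 0 genes were called. With only the birds that had W transcripts, 6 of CTL and 3 of SP, BANK1 differed by 0.83 and BTK by 0.78, again with 0 genes called. A pseudocount of 1 gave 1.02 for PAX5, 1.11 for CXCR5 and 0.78 for TNFRSF13C.

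The supplemented birds were lower than SP in every one of the 6 genes. On the log2(FPKM + 0.1) scale the SPH difference from SP was -3.53 for TNFRSF13C, -3.26 for CXCR5, -2.99 for PAX5, -2.01 for CD79B, -0.70 for BTK and -0.64 for BANK1. For SPM these were -3.20, -3.01, -3.11, -2.06, -0.67 and -0.55 in the same order. All 6 SPH birds and all 6 SPM birds lay below the SP median in each of the 6 genes. The genes vary together, and the share of all genes separated in this way was not counted. Of the 17288 genes 0 were called in either comparison, while 699 (4.04%) and 993 (5.74%) passed the limits without adjustment. Both comparisons use the same SP birds and both bear on the choice of the genes, so nothing is read from these counts. The count of genes called in SPM vs SP rested on single birds, since it was 145 without SP bird 2 and 4 without SPM bird 1. The sizes depend on the pseudocount, most of all for TNFRSF13C, with -1.50 at a pseudocount of 1 and -5.41 at 0.01 for SPH, and -1.38 and -5.01 for SPM. At a pseudocount of 1 the SPH and SPM differences were -1.84 and -1.73 for CXCR5 and -1.44 and -1.52 for PAX5.

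**Figure D2:**
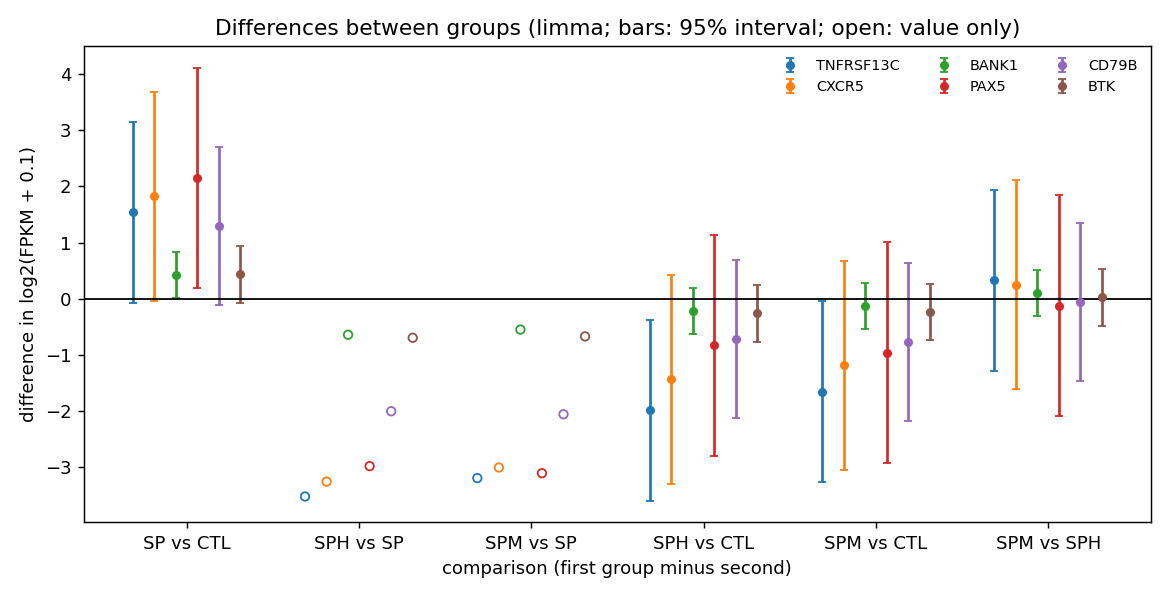
Difference between group means of log2(FPKM + 0.1) for each gene in the 6 comparisons, first group minus second, with 95% intervals from limma as bars. Open points, in SPH vs SP and SPM vs SP, are values without an interval because these comparisons bear on the choice of the genes, and the widest bars belong to PAX5, CXCR5 and TNFRSF13C.

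Set against the unchallenged CTL birds, the supplemented birds were lower by smaller amounts. The SPH difference from CTL was -1.99 for TNFRSF13C, -1.44 for CXCR5, -0.83 for PAX5, -0.71 for CD79B, -0.26 for BTK and -0.23 for BANK1, with an adjusted p of 1 for each from limma. Of all genes 0 were called and 320 (1.85%) passed the limits without adjustment, with TNFRSF13C the only follicle gene among them. All 6 SPH birds lay below its CTL median, on 6 reads in all. Its two-sided exact permutation p was 0.0108, not adjusted for the number of genes, against 0.186 to 0.494 for the other follicle genes. These birds' values chose the gene, so nothing is read from its p value. In SPM the differences from CTL were -1.66 for TNFRSF13C, -1.19 for CXCR5, -0.96 for PAX5, -0.76 for CD79B, -0.24 for BTK and -0.13 for BANK1, with adjusted p from 0.931 to 0.956. Here 0 genes were called and 344 (1.99%) passed without adjustment, again with TNFRSF13C alone of the 6. Its two-sided exact permutation p in SPM vs CTL was 0.0974, under the same limit. CTL bird 2 carried much of both sets of values. Without it the SPH difference was -1.32 for TNFRSF13C, -0.78 for CXCR5, -0.07 for PAX5, -0.13 for CD79B, -0.04 for BTK and -0.14 for BANK1. The SPM difference without it was -0.99 for TNFRSF13C, -0.53 for CXCR5, -0.19 for PAX5, -0.18 for CD79B, -0.02 for BTK and -0.05 for BANK1. With a pseudocount of 1 or 0.01 in all birds, TNFRSF13C differed from CTL by -0.71 or -3.63 in SPH and by -0.60 or -3.22 in SPM, CXCR5 by -0.72 or -1.81 in SPH and by -0.62 or -1.42 in SPM, and PAX5 by -0.43 or -1.18 in SPH and by -0.50 or -1.33 in SPM.

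Honokiol and magnolol share a formula and differ in where the rings of the biphenol are joined and bear their hydroxyl groups. Both were given at 300 mg/kg and sampled at 14 d, and the pair was compared in 6 genes. The SPM difference from SPH was 0.33 for TNFRSF13C (95% interval -1.29 to 1.94), 0.25 for CXCR5 (-1.61 to 2.11), 0.09 for BANK1 (-0.32 to 0.50), -0.13 for PAX5 (-2.09 to 1.84), -0.05 for CD79B (-1.46 to 1.36) and 0.02 for BTK (-0.48 to 0.53). No difference was detected, with limma's adjusted p from 0.996 to 0.9996 and two-sided exact permutation p from 0.565 to 0.918. The values of all these birds entered the choice of the genes, so these p values are not independent of it. The intervals leave room for differences of over 1 log2 unit in TNFRSF13C, CXCR5, PAX5 and CD79B, so the data do not show that the compounds act alike. Over all genes 0 were called and 323 (1.87%) passed without adjustment, none of them a follicle gene.

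The 6 genes spread unequally within groups. The SD of log2(FPKM + 0.1) within groups was 1.76 for PAX5, 1.67 for CXCR5, 1.43 for TNFRSF13C, 1.26 for CD79B, 0.45 for BTK and 0.34 for BANK1, against a median of 0.25 over 13454 genes with a mean of at least 1 FPKM. Of these genes, 97.5% to 98.9% had a smaller SD than CD79B, TNFRSF13C, CXCR5 and PAX5, against 84.2% for BTK and 71.5% for BANK1. TNFRSF13C, CXCR5 and PAX5 reached a mean of 1 FPKM only through high birds of SP and CTL, as their means in SPH and SPM were below 1. A gene that passes this limit through a few high birds has a wide spread on the log scale. Nothing is therefore read from the shares of these genes.

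In the birds with much CD79B the ratio of PAX5 to it varied least. Over the 4 birds highest in CD79B, the FPKM ratio of PAX5 to CD79B was 0.346 to 0.387, that of CXCR5 to CD79B 0.489 to 0.646, that of TNFRSF13C to CD79B 0.209 to 0.344 and that of BANK1 to CD79B 0.130 to 0.344. Over all 24 birds the PAX5 ratio ran from 0.0189 to 0.473. BTK stood at 0.996 to 1.35 times CD79B in those 4 birds and at up to 11.5 times in SPM bird 1.

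**Figure D3:**
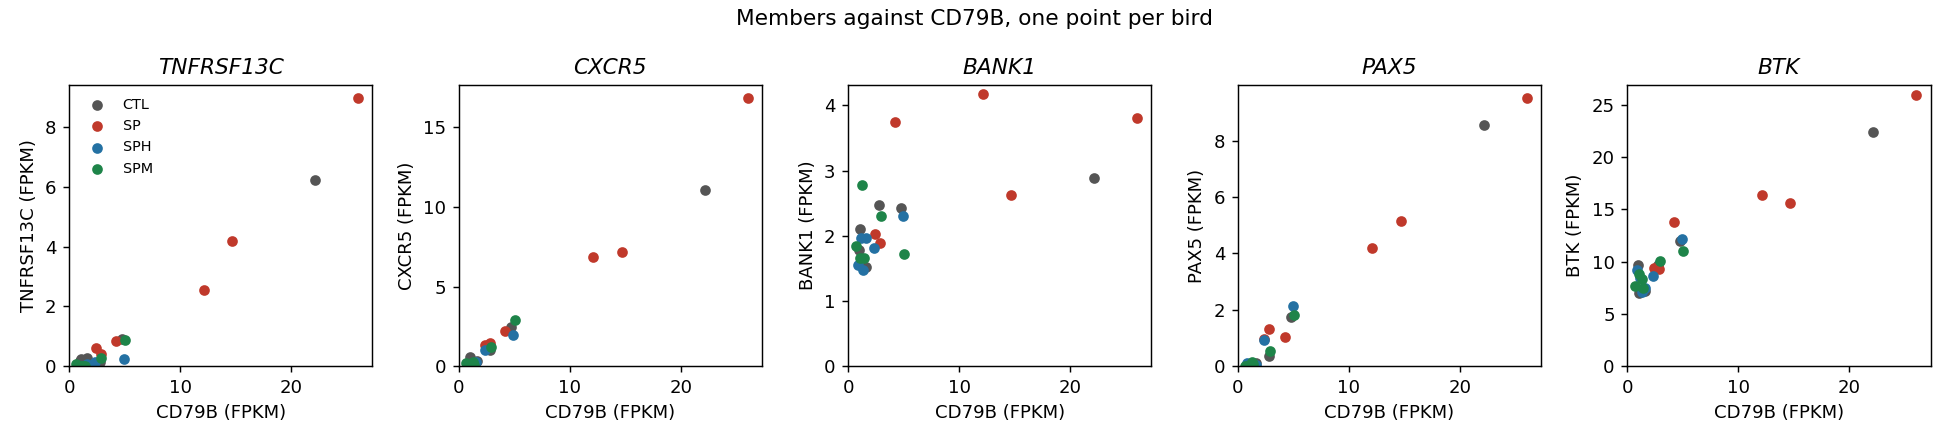
FPKM of 5 genes against the FPKM of CD79B, with 1 point per bird and colours for the 4 groups. TNFRSF13C, CXCR5 and PAX5 come near 0 in birds with little CD79B, which itself stays at 0.665 FPKM or more. Straight lines on CD79B, not drawn here, meet the axis near 7.61 FPKM for BTK and near 1.90 FPKM for BANK1.

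How strongly the genes varied together was measured by Pearson's r between log2 values centred within groups over 24 birds, for 15 pairs, as a description. The birds of a pair of genes share library and depth. The median r was 0.858. The 10 pairs without BANK1 lay between 0.80 (CXCR5 with BTK) and 0.958 (CXCR5 with PAX5), with CXCR5 with CD79B at 0.942 and PAX5 with CD79B at 0.938. The 5 pairs with BANK1 lay between 0.478 (with TNFRSF13C) and 0.656 (with BTK). Spearman's rho gave a median of 0.780. Without the 2 birds farthest from the median of the mean level, an alternative chosen after seeing the data, the median r was 0.750 and the pairs without BANK1 lay between 0.693 and 0.940. The first principal component of the 6 centred genes held 82.9% of their variance.

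The genes also varied together inside each group of 6 birds, though unevenly. The median r of the 15 pairs was highest in SP with 0.944, followed by 0.902 in CTL, 0.883 in SPM and 0.748 in SPH. PAX5 with CD79B gave 0.986 in CTL, and the lowest value was 0.896 in SPH. BANK1 was the exception in SPM, where its 5 values of r lay between -0.113 and 0.125. In SPH, BTK was also loosely tied, with 0.605 for CXCR5, 0.615 for TNFRSF13C, 0.676 for CD79B and 0.782 for PAX5. BANK1 ran from 0.545 to 0.748 there. TNFRSF13C had 3 reads or fewer in 6 SPH birds and 5 SPM birds, so its r inside these groups rests on few reads.

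**Figure D4:**
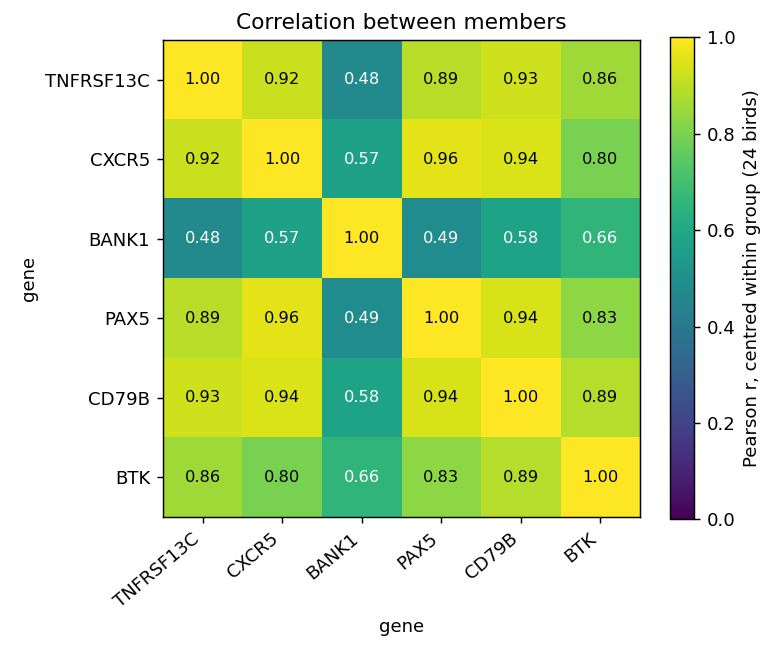
Pearson's r between log2(FPKM + 0.1) of the 6 genes, centred within group, over 24 birds. TNFRSF13C, CXCR5, PAX5, CD79B and BTK form a block of 0.80 or more, and the row of BANK1 lies between 0.478 and 0.656.

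BANK1 went with W transcripts in opposite ways in SP and SPM. In SP, the 3 birds with W transcripts had 3.75 to 4.18 FPKM and the 3 without had 1.89 to 2.63, without overlap. In SPM the 4 birds with W transcripts had 1.65 to 1.84 FPKM and the 2 without had 2.30 and 2.78. In SPH the 3 birds with W transcripts, at 1.82 to 1.96 FPKM, lay within the range of the 3 without, 1.48 to 2.30. These sets are small, and the share of all genes separated in this way was not counted. The labels give no sex, and the part of W status in these levels was not tested.

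The genes of both receptors' ligands varied with the follicle genes from bird to bird. They were named here for their role after their values had been seen. CXCL13, the ligand of CXCR5, had 83.3 FPKM in SP bird 5, 59.0 in CTL bird 2, 38.3 in SP bird 6 and 35.6 in SP bird 1, and its median was 21.9 in SP, 4.32 in CTL, 0.449 in SPH and 0.221 in SPM. It was listed at 0 in 2 birds. Its r with CXCR5 was 0.944 over 24 birds, that of the related CXCL13L2 was 0.884 and that of CXCL13L3 was 0.923. TNFSF13B, which encodes BAFF, ranged less, from 2.21 to 13.2 FPKM in SP, 1.47 to 7.46 in CTL, 2.11 to 4.20 in SPH and 1.84 to 3.84 in SPM, with an r of 0.814 with TNFRSF13C and of 0.715 without the 2 birds farthest from the median. Its r with CXCR5, of which it is no ligand, was 0.817. In SP vs CTL the difference was 2.29 for CXCL13, 2.14 for CXCL13L2, 1.00 for CXCL13L3 and 0.51 for TNFSF13B, with adjusted p from 0.767 to 0.843.

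**Figure D5:**
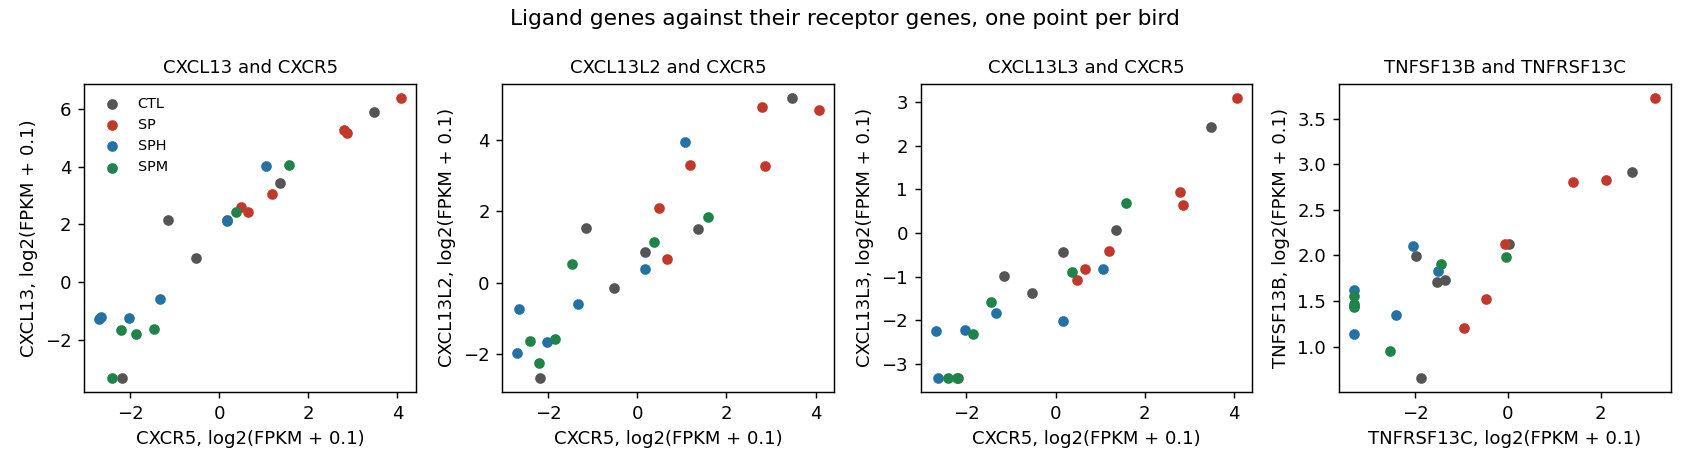
Ligand gene against receptor gene on the scale log2(FPKM + 0.1), with 1 point per bird and colours for the groups. CXCL13 and CXCR5 go together over the whole range in all 4 groups, and TNFSF13B spans a narrower range than TNFRSF13C.

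Among 10437 other genes with a symbol and a mean of at least 1 FPKM, those most like the mean of the 6 genes, by r of centred log2 values over 24 birds, included RFTN1 (0.959), TRAF3IP3 (0.956), SYNGR3 (0.951), CD72 (0.950), PLD4 (0.950), RASSF5 (0.945), PRKCB (0.943), LIMD2 (0.942) and HVCN1 (0.939). CD72 encodes a co-receptor of B cells and PRKCB a kinase of the antigen receptor pathway. CD72 was at 16.9 FPKM in SP bird 5 and 10.6 in CTL bird 2. The 5 with the lowest r were SEC31B (-0.912), IGF2BP2 (-0.867), DLGAP4 (-0.859), DNMBP (-0.835) and RHOBTB2 (-0.817). The median r of all these genes was -0.0300, and 222 of them had an r over 0.8.

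Other genes of the pathway were counted by lists. No entry of any list was called in any comparison. In SP vs CTL, 18 of 21 B cell receptor signalling genes had a higher mean, with a median difference of 0.20, as did 10 of 12 B cell transcription factors (median 0.30), 13 of 13 germinal centre genes (0.37), 6 of 6 genes of the BAFF and APRIL axis (0.25) and 9 of 10 follicle chemokine and stroma genes (0.88), beside a median of -0.0046 over all genes. In SPH vs SP the counts with a lower mean were 20 of 21, 12 of 12, 11 of 13, 6 of 6 and 9 of 10, and in SPM vs SP 17 of 21, 10 of 12, 13 of 13, 6 of 6 and 9 of 10, beside all-gene medians of 0.0075 and 0.0137. The list medians were -0.36, -0.44, -0.27, -0.46 and -0.88 in SPH vs SP, and -0.28, -0.41, -0.33, -0.46 and -1.15 in SPM vs SP. The means of 16 of 16 T cell entries (medians -0.55 and -0.70) and of 11 of 11 proliferation entries (-0.18 and -0.60) were also lower in SPH and in SPM than in SP. So were 13 of 15 macrophage and dendritic cell entries in both (-0.18 and -0.29) and 7 of 10 plasma cell and immunoglobulin entries in both (-0.22 and -0.29). Thrombocyte and heterophil entries were lower in 8 of 10 and 7 of 10 cases (-0.27 and -0.16). Both comparisons bear on the choice of the members. Smooth muscle entries had a higher mean in 11 of 11 cases in both (0.24 and 0.31), and epithelial entries in 11 of 14 and 9 of 14 (0.12 and 0.08). In SP vs CTL, the higher means were also not confined to the B cell lists. They were found in 11 of 11 proliferation entries (median 0.28), 12 of 15 macrophage and dendritic cell entries (0.14) and 7 of 10 plasma cell and immunoglobulin entries (0.11). Thrombocyte and heterophil entries were higher in 4 of 10 cases (-0.045) and epithelial entries in 7 of 14 (-0.0048). The most abundant entries were LYN, PTPN6 and CD81 of receptor signalling, IRF8, SPI1 and ETS1 of the transcription factors, GNA13, BCL6 and ICOS of the germinal centre, NFKB2, TRAF2 and MAP3K14 of the BAFF axis, and a pair of CCL19 entries and TNFRSF1A of the chemokines. LYN, a Src family kinase found in many blood cells, had an r of -0.155 with the follicle genes, whereas SPI1, the myeloid and B cell factor PU.1, had 0.916. Low values were not confined to LYN, as IRF8 had -0.171, GNA13 0.017 and BCL6 0.357. An r over 0.5 was found for 14 of 21 receptor signalling, 8 of 12 transcription factor and 7 of 13 germinal centre genes. The lowest r in these lists was -0.265, -0.171 and -0.086.

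Markers of other cell types moved with the follicle genes to unequal degrees. The T cell list, 16 entries tested, had a list score with an r of 0.895 with the 6 genes, and 13 of 16 entries had an r over 0.5. Its summed level was 312.6 to 460.9 FPKM in SP, 211.7 to 432.7 in CTL, 216.2 to 355.5 in SPH and 178.9 to 331.0 in SPM, and in SP vs CTL 15 of 16 entries had a higher mean (median 0.53). Its leading markers CD3D and CD3E were at 60.4 and 57.9 FPKM or more in every bird. The r was 0.714 for 10 thrombocyte and heterophil genes, 0.586 for 15 macrophage and dendritic cell genes, 0.579 for 10 plasma cell and immunoglobulin genes, 0.467 for 11 proliferation genes, -0.129 for 11 smooth muscle genes and -0.254 for 14 epithelial genes. Smooth muscle entries had a lower mean in SP than in CTL in 11 of 11 cases (median -0.32), with a summed level of 1675 to 2324 FPKM in CTL and 1073 to 1750 in SP. The part of sampled tissue in the levels of the follicle genes was not tested.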

How the data were processed

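Total RNA of ileum was sequenced from 24 broilers, 1 per replicate cage. The authors deposited FPKM values per gene with gene lengths, and their methods name DESeq2 as their test. The submitters' processing notes name Bowtie 0.12.2 without saying how it was used, and no source used here gives the counting program. These notes list a mouse genome build beside a chicken one. Which build the coordinates of the table follow is not given. Because FPKM values are not counts, 1 linear model of all 24 birds was made with limma 3.58.1 (R 4.3.3) on log2(FPKM + 0.1), with an intensity trend, for 17288 genes with a mean of at least 0.1 FPKM, and the Benjamini-Hochberg adjustment ran over the genes of each of 6 comparisons. The pseudocount makes a fold change of a low gene smaller than it was. Every one of 440917 values above 0 came out as whole reads (tolerance 0.001, 100%), and limma-voom on these reads was an alternative that called 0 genes in each comparison. The gene length column is the authors' value and was used only for recovering reads. Single genes were also compared with two-sided exact permutation tests. The fit was tested on simulated data, with known changes placed only in genes whose spread within groups was below the median. All 6 follicle genes had a spread above the median, so the simulation does not show how the fit does on them. Nothing in the labels says that birds were independent beyond their cages, and p values set group differences against the spread between these birds.

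The members and the gene lists were chosen with earlier results of these data known. Named genes were the members, the 3 most abundant entries of each list, any called entry, and the 10 genes most and 5 least like the members. A gene of these is not reported here. The reads of 14393822 to 19435410 per bird set the precision of the low genes. Alternatives were pseudocounts of 1 and 0.01, a mean of at least 1 FPKM, no filter, only the 12 birds compared, the replicate number as a block, quantile normalization, limma-voom, W transcripts as a term or as a restriction, and each bird left out in turn.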

Additional observations from a re-analysis of the deposited data

Results flagged for a closer look

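In 8 of 24 sets of 6 birds, 1 set per gene and group, the highest bird stood apart by a gap of more than 0.625 of the set's range, which is Dixon's 95% limit. That limit flags about 1 set in 20 only where values are normally distributed. It was applied here to FPKM without a log, so that rate cannot be taken for these sets. The 6 genes also vary together, so these are not 8 independent cases. CTL bird 2 was the bird in 5 of them. It had 6.246 FPKM of TNFRSF13C, where the next CTL bird had 0.919, 11.05 of CXCR5 (next 2.46), 8.56 of PAX5 (next 1.76), 22.15 of CD79B (next 4.76) and 22.42 of BTK (next 12.0). SPM bird 5 had 0.8748 FPKM of TNFRSF13C (next 0.269) and 1.805 of PAX5 (next 0.523). SPH bird 3 had 4.934 FPKM of CD79B (next 2.33).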

How the results depend on the processing

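No member changed its side of the threshold in the 4 tested comparisons under any alternative, and no member changed direction in any comparison but SPM vs SPH. With only the birds with W transcripts, SPM vs SPH gave -0.15 for BANK1 and 0.006348 for PAX5, and with W transcripts as a term -0.0008996 for BTK. Leaving out each bird in turn, SPM vs SPH ran from -0.13 to 0.56 for TNFRSF13C, -0.26 to 0.71 for CXCR5, -0.0051 to 0.16 for BANK1, -0.65 to 0.42 for PAX5, -0.36 to 0.24 for CD79B and -0.03946 to 0.12 for BTK. The count of genes called moved from 0 to 1 in SPM vs CTL with only the 12 birds compared. In SPM vs SP it moved to 1 with quantile normalization and to 121 with only the birds with W transcripts. With each bird left out it ran from 0 to 145 (145 without SP replicate 2, 4 without SPM replicate 1, and 1 without SP replicate 5 or SPM replicate 4). This comparison bears on the choice of the members, so their place in its counts is not given. The count in SPM vs SP was 5 without the bird highest in CD79B of each group, an alternative chosen after seeing the data. Its birds were picked by the level of a member, so that nothing is read from it. The causes were not tested. Of the 10 genes most like the members, 6 were shared when values were not centred within group.

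Replicate numbers did not pair the birds, since 1 of 36 pairs of same-numbered birds had an r over 0.1 between their deviations from the group means (range -0.201 to 0.238). With the replicate block 1 gene was called in SPM vs SP and 0 in the other 5 comparisons. Depth limits TNFRSF13C most, with 3 reads or fewer in 14 birds.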
